A study of Mus musculus with 2 samples.

Results

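Cytochrome P450 enzymes of the Cyp4 family hydroxylate fatty acids at the last carbon of the chain, the omega end, and the fatty aldehyde dehydrogenase Aldh3a2 acts further along the same route. Of 10 genes of this pathway in liver, Cyp4a10, Cyp4a14, Cyp4a12a, Cyp4a12b, Cyp4a31, Cyp4f13, Cyp4f14, Cyp4f15, Cyp4v3 and Aldh3a2, 8 had a probe set of their own. Cyp4a10 was listed only together with its paralog Cyp4a31, and no probe set in the annotation used here named Cyp4a12b. These genes held 11 of the 35877 probe sets that named at least 1 gene, out of 45101 on the array, and were matched by gene ID. The group was chosen by the ratio of the same comparison given here, in which Cyp4a14 was known to be far higher in one pool, so the ratios below are a description and no evidence that the group stands apart.

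Both pools of liver RNA came from 12-week-old male mice on chow diet that had been fasted for 6 hr. Flox/Flox mice were homozygous for a floxed Lpcat3 allele and lacked the Cre transgene. L-Lpcat3 KO mice carried the same floxed alleles together with the Albumin-Cre transgene, which is active in hepatocytes, so that other liver cells keep Lpcat3, the acyltransferase that places polyunsaturated chains into phosphatidylcholine. RNA of 5 mice was pooled per genotype and hybridized to 1 Affymetrix array, so there are 2 arrays, no replicates and no test. Each ratio measures the difference between 2 pools and has no error among mice. Signals are in MAS5 units, a background-corrected summary of each probe set on a linear scale, and can be compared between pools for 1 probe set but not between probe sets. Where 2 signals are given without a group, Flox/Flox comes first. In whole liver, fewer cells of a type and less RNA per cell cannot be told apart.

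Omega-hydroxylation opens a side route of fatty acid breakdown. A Cyp4 enzyme in the endoplasmic reticulum, fed with electrons by P450 reductase, adds a hydroxyl group to the terminal carbon. Alcohol and aldehyde dehydrogenases then turn the product into a dicarboxylic acid, which is shortened in peroxisomes. In mouse liver, Cyp4a10 and Cyp4a14 are classical targets of PPARα, the nuclear receptor that is activated by fatty acids and fasting, whereas Cyp4a12a is expressed mainly in males. Enzymes of the Cyp4f branch also inactivate eicosanoids such as leukotriene B4, and arachidonate itself is a substrate of the family.

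The Lpcat3 probe set read 3310 in the Flox/Flox pool and 1305 in the L-Lpcat3 KO pool. It was thus 2.54-fold lower in the pool labelled as knockout, although where on the transcript it lies relative to the floxed exon was not examined. The 9 hepatocyte markers measured, among them Alb, Apoa1 and Cyp3a11, read at least 17086 in both pools.

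In the Cyp4a branch, all 5 probe sets were higher in L-Lpcat3 KO. Cyp4a14 (probe set 1423257_at) read 3507 in the Flox/Flox pool and 15684 in the L-Lpcat3 KO pool, which is 4.47-fold higher, or 2.16 on the log2 scale. It was the largest difference of the 11 probe sets. Among the 1648 other probe sets whose mean signal lay within 2-fold of it and whose signal was above the floor in both pools, none had a ratio as high, and the central 95% of their log2 ratios ran from -0.32 to 0.32. The floor is the median signal of all probe sets, 76.4, and lower signals were raised to it.

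The probe set listed for both Cyp4a10 and Cyp4a31 (1424853_s_at) read 21284 in the Flox/Flox pool and 31225 in the L-Lpcat3 KO pool. Its ratio of 1.47-fold (log2 0.55) lay just inside the 1.5-fold size used for counts. The central 95% of the log2 ratios of 572 probe sets of like signal lay between -0.29 and 0.20. Of these 572, 2 had a ratio as high. Which of both paralogs carried the difference cannot be told apart with this probe set.

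Cyp4a31, a close paralog and neighbour of Cyp4a10, had a pair of probe sets of its own that differed from each other. One (1440134_at) read 715 in the Flox/Flox pool against 1432 in the L-Lpcat3 KO pool, 2.00-fold higher. The other (1424943_at) read 805 and 1034, 1.29-fold higher. Of the probe sets of like signal, 0.246% and 5.17% were as high. Both were higher in L-Lpcat3 KO, but the gap between their log2 ratios, 0.64, was wide. Among 2142 genes with at least 2 probe sets above a signal of 387 in both pools, the median gap between the brightest pair was 0.14, and 2.33% had a gap as large as that of Cyp4a31. Sequences of single probes were not used here, so a share of signal from other Cyp4a transcripts could not be told apart from Cyp4a31 itself.

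Cyp4a12a (1424352_at), the male-biased arachidonate omega-hydroxylase, differed little. The Flox/Flox pool gave 12363 and the L-Lpcat3 KO pool 13713, 1.11-fold higher (log2 0.15). Of 1083 probe sets of like signal, 9.88% had a ratio as high. The 2 Cyp4a genes with a probe set past 1.5-fold were therefore Cyp4a14 and Cyp4a31, with Cyp4a12a well inside it.

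**Figure D1:**
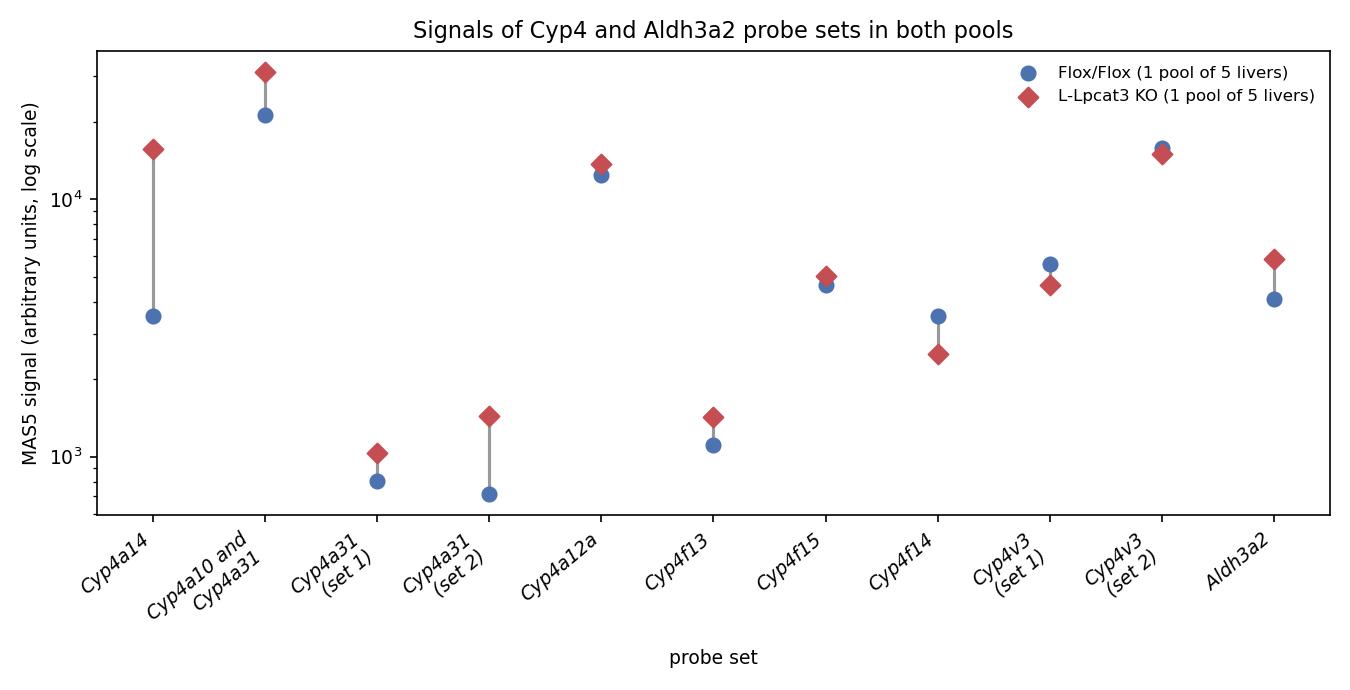
MAS5 signal (y axis, log scale) of the 11 probe sets of Cyp4 genes and Aldh3a2 (x axis), with 1 point for the pool of Flox/Flox livers, 1 for the pool of L-Lpcat3 KO livers and a grey line between them; heights of different probe sets cannot be compared. The widest gap is that of Cyp4a14, 3507 against 15684, and Cyp4f14 and both probe sets of Cyp4v3 have the higher signal in Flox/Flox.

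The Cyp4f branch was mixed, with Cyp4f13 and Cyp4f15 higher and Cyp4f14 lower in L-Lpcat3 KO, each by less than 1.5-fold. Promoter sequence from RefSeq (GRCm38.p6, 250 bases before to 50 after the start site) was used for all 3 genes. It is shown because the ratios of these Cyp4f genes of chromosome 17 point in different directions. The capitals mark ATTGG, which is a CCAAT box read on the opposite strand. The stretches are written 5′ to 3′ along each gene. They lie at chr17:32685541-32685610 on the plus strand (Cyp4f15), chr17:32917377-32917446 on the minus strand (Cyp4f14) and chr17:32947408-32947477 on the minus strand (Cyp4f13).
Cyp4f15: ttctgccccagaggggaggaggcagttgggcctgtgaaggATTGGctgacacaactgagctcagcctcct
Cyp4f14: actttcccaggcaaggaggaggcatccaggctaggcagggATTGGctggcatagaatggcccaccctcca
Cyp4f13: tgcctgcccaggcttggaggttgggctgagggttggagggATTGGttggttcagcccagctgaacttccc

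The box begins 78 bases before the start site of Cyp4f15 and 76 before that of Cyp4f13. For Cyp4f14 it begins 50, 64 or 77 bases before the start, depending on which of 3 annotated starts is taken. The window of the other annotated start does not reach it but holds another CCAAT, 24 bases before that start. Aligned on the box without gaps, the stretch of Cyp4f15 shared 42 of 70 bases with that of Cyp4f14 and 37 with that of Cyp4f13, and those of Cyp4f14 and Cyp4f13 shared 30. CCAAT on either strand was found in 37.4% of 32851 promoter windows of the same length, so a match alone is common, and it says nothing of which factor binds. It was in 7 of the 8 member windows searched. Of these windows 4 belong to Cyp4f14, and 3 of the 4 show the same box, so windows do not count as separate genes. CCAAT was also in the window of Aldh3a2, 13 bases before its start, so it is not particular to the Cyp4f genes.

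Cyp4f14 (1419559_at), the mouse leukotriene B4 omega-hydroxylase, read 3515 in the Flox/Flox pool and 2511 in the L-Lpcat3 KO pool. It was 1.40-fold lower (log2 -0.49), the lowest ratio of the 11 probe sets. Of 3242 probe sets of like signal, 43 (1.33%) had a ratio as low. Cyp4f13 (1418767_at) read 1105 and 1426, 1.29-fold higher, and 3.64% of 5242 probe sets of like signal were as high. Cyp4f15 (1449316_at) read 4642 and 5020, 1.08-fold higher, within the range of most probe sets of like signal, of which 21.1% were as high.

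Cyp4v3, a broadly expressed member of the family that hydroxylates medium-chain fatty acids, was slightly lower in L-Lpcat3 KO by both of its probe sets. One (1417070_at) read 5604 in the Flox/Flox pool against 4650 in the L-Lpcat3 KO pool, 1.21-fold lower. The other (1417071_s_at) read 15816 and 14949, 1.06-fold lower. The directions were the same and the gap between the log2 ratios was 0.19. Of the probe sets of like signal, 4.8% and 28.1% were as low, so the second difference was within what most probe sets showed.

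Aldh3a2 (1415776_at) encodes the microsomal fatty aldehyde dehydrogenase, whose loss in humans causes Sjögren-Larsson syndrome. The Flox/Flox pool gave 4108 and the L-Lpcat3 KO pool 5840, 1.42-fold higher (log2 0.51). Of 2250 probe sets of like signal, 19 (0.844%) had a ratio as high. Its promoter is shown because Aldh3a2 was the member outside the Cyp4a branch with the highest ratio. The capitals mark the E-box CACGTG 30 bases before the start site, in the stretch at chr11:61267186-61267256 on the minus strand (GRCm38.p6, RefSeq).
Aldh3a2: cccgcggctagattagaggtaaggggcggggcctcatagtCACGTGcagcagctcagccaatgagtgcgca

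The E-box was found in 7.15% of all promoter windows and, among the members, also in that of Cyp4v3. The half-site AGGTCA, the core of elements bound by PPARα and its partner RXR, was found on neither strand of the 8 windows of Cyp4f13, Cyp4f14, Cyp4f15, Cyp4v3 and Aldh3a2. It was found in 16.3% of all windows, and the direct repeat AGGTCANAGGTCA in 0.0396%. The element TTATGTAA, read by clock-driven factors such as DBP, was likewise in none of the 8 windows and in 0.938% of all. These letters were searched in short windows only and without mismatches. The promoters of Cyp4a10, Cyp4a14, Cyp4a12a, Cyp4a12b and Cyp4a31 were not analysed here.

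Counted together, 8 of the 11 probe sets had a ratio above 0 and 3 below. At 1.5-fold, 2 were higher, those of Cyp4a14 and Cyp4a31, none was lower and 9 lay within that size. Just inside it were the shared Cyp4a10 and Cyp4a31 probe set (1.47-fold), Aldh3a2 (1.42-fold) and Cyp4f14 (1.40-fold lower). Of 21235 probe sets that named a gene and were above the floor in at least 1 pool, 4.37% reached 1.5-fold upward in L-Lpcat3 KO and 3.59% downward. All 11 probe sets exceeded the 75th percentile of signals, 387, in both pools. Among the 10245 probe sets that did so, the shares were 0.771% and 0.83%. The median log2 ratio of the 11 probe sets was 0.36, and 0.26 without Cyp4a14, against -0.01 over those 10245. Because the group was put together with Cyp4a14 known, nothing is read from these counts.

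**Figure D2:**
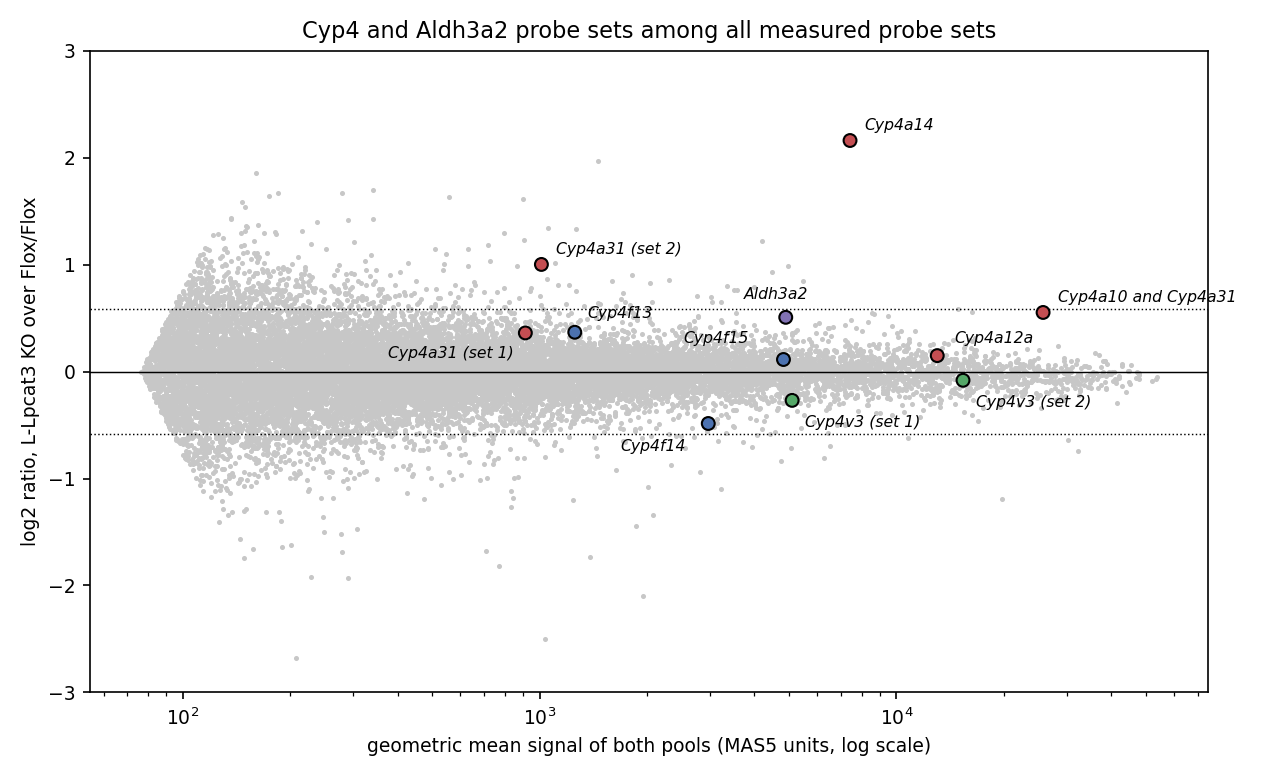
Log2 ratio between the pools, L-Lpcat3 KO to Flox/Flox, on the y axis, plotted by brightness, the square root of the product of both MAS5 signals (x axis, log scale); grey points are probe sets that named a gene and were above the floor in both pools, coloured points the 11 probe sets of Cyp4a (red), Cyp4f (blue), Cyp4v3 (green) and Aldh3a2 (purple), and dotted lines mark 1.5-fold. Cyp4a14 (2.16) lies far above all grey points of like signal, and Cyp4f14 (-0.49) lies lowest of the coloured points.

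The Cyp4a genes lie in 1 cluster on chromosome 4 and the Cyp4f members in another on chromosome 17. In the RefSeq order, Cyp4x1, Cyp4a28-ps and Cyp4a29 precede Cyp4a12a and Cyp4a12b, followed after Cyp4a30b by Cyp4a14, Cyp4a10, Cyp4a31 and Cyp4a32, with Cyp4b1 at the end of the row. Along this row the log2 ratios were 0.15 for Cyp4a12a, 2.16 for Cyp4a14, 0.55 for the probe set of Cyp4a10 and Cyp4a31, and, for the pair of Cyp4a31, 0.36 in one and 2.00-fold in the other. Cyp4b1, which is no member of the group and acts on shorter chains and on xenobiotics, read 816 in the Flox/Flox pool and 1254 in the L-Lpcat3 KO pool, 1.54-fold higher. On chromosome 17, Cyp4f15, Cyp4f14 and Cyp4f13, which follow each other among the listed Cyp4 genes, had log2 ratios of 0.11, -0.49 and 0.37. Genes of other families between them were not examined. Cyp4f14 was lower and the listed Cyp4f genes before and after it were higher.

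**Figure D3:**
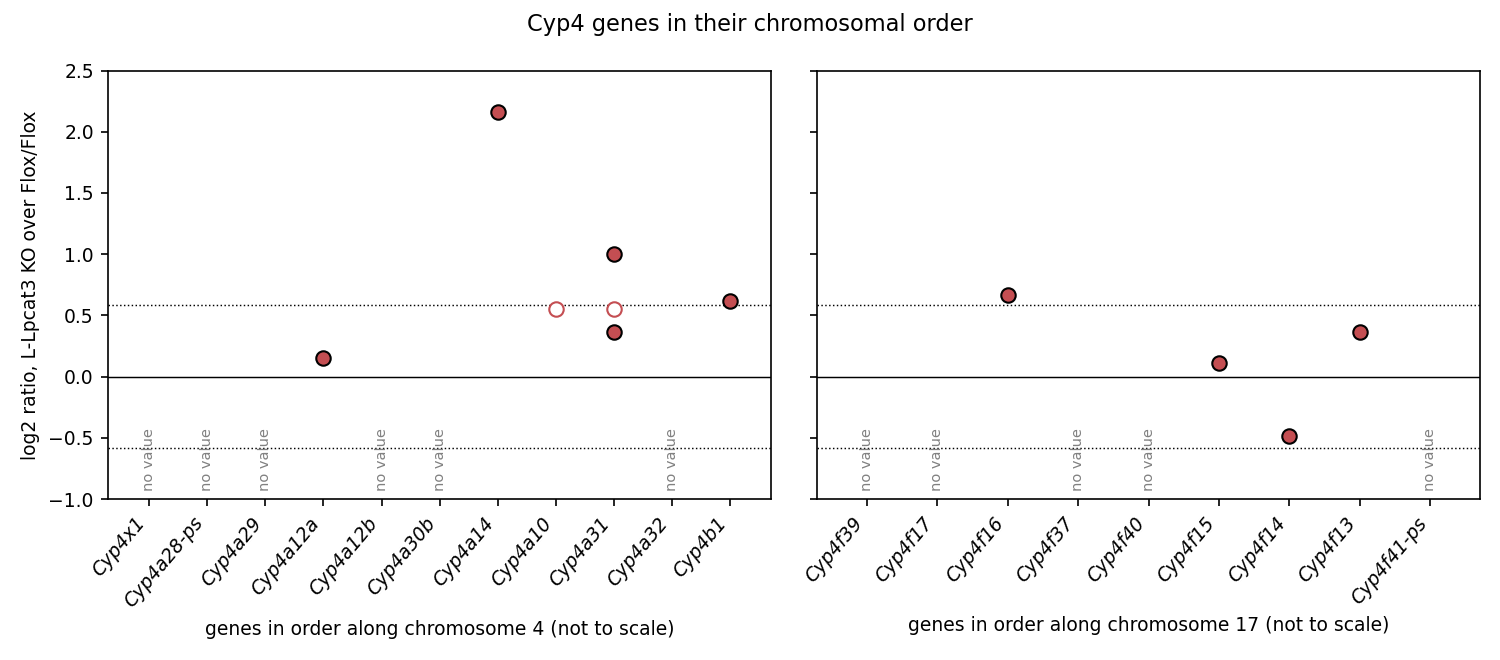
Log2 ratio between the pools, L-Lpcat3 KO to Flox/Flox, on the y axis, for Cyp4 genes in their order along chromosomes 4 and 17 (x axis, not to scale), 1 point per probe set above the floor in both pools; open circles are the 1 probe set listed for both Cyp4a10 and Cyp4a31, drawn at each, and "no value" marks genes without such a probe set. Ratios in the Cyp4a row run from 0.15 at Cyp4a12a to 2.16 at Cyp4a14, and Cyp4f14 lies below 0 between Cyp4f15 and Cyp4f13 above it.

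Other genes of the Cyp4 family were mostly dim or not named on the array. Of 13 such genes, 3 were measured, meaning above the floor in at least 1 pool. Beside Cyp4b1, Cyp4f16 read 93.1 in the Flox/Flox pool and 148 in the L-Lpcat3 KO pool by its brighter probe set, 1.59-fold higher but near the floor. Its other probe set was at 76.5 and 3.34, at the floor in L-Lpcat3 KO. Cyp4f39 was at 80.1 and 62.5. Cyp4f18, the leukotriene hydroxylase of neutrophils, was below the floor in both pools by both of its probe sets, as was Cyp4x1.

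Most measured partners of the Cyp4 enzymes lay within 1.5-fold. By the brightest probe set of each gene, 4.04% of 12085 measured genes reached 1.5-fold upward and 3.19% downward, and 50.7% had a ratio above 0. Of the electron donors, 3 of 4 were measured and all lay within 1.5-fold. The main donor, P450 reductase (Por), was the one not analysed here. Cytochrome b5, Cyb5a, read 30530 and 30313, and its reductase Cyb5r3 17315 and 15214. Of 8 alcohol and aldehyde dehydrogenases measured beside Aldh3a2, 4 had ratios above 0, 7 lay within 1.5-fold and 1, Adh7, was lower (307 against 201, 1.52-fold; its other probe set was at -0.10 on the log2 scale). Adh1, the main hepatic alcohol dehydrogenase, read 31136 and 32746, and the cytosolic Aldh1a1 29649 and 29378. Both enzymes that hydroxylate fatty acids near the omega end, Cyp2e1 (log2 ratio -0.02) and Cyp2u1 (-0.52, with 0.22 in its other probe set), were below 0 and within 1.5-fold. Aldh3a2 had the highest ratio of the 9 dehydrogenases measured, but it and the list were chosen with earlier results of these data known, so nothing is read from this rank.

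Genes of the peroxisomal stage, where dicarboxylic acids are shortened, were more often above than below 0. Of 15 measured genes, 12 lay above 0, 2 of them past 1.5-fold, and no gene was past that size downward, with a median log2 ratio of 0.19 against 0.00 over all genes. Over all measured genes, 50.7% lay above 0 and 4.04% were past 1.5-fold upward. The peroxisomal list was chosen with earlier results of these data known, so nothing is read from its counts. The thioesterase Acot3 was 1.82-fold higher (778 against 1417). The transporter Abcd2, at the floor in Flox/Flox, read 213 in L-Lpcat3 KO and was at least 2.78-fold higher, while a further probe set of Abcd2 gave a log2 ratio of 0.14. The dicarboxylate thioesterase Acot4 had a log2 ratio of 0.33, the bifunctional enzyme Ehhadh of 0.25, and the brightest genes, Acaa1b and Scp2, of 0.10 and -0.01, although other probe sets of Scp2 gave 1.33, -0.30 and -0.15. Because Abcd2 is known only as a lower bound, its ratio cannot be ranked against that of Cyp4a14. A higher floor, set at the 75th percentile, left 1 gene of this list past 1.5-fold in place of 2.

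The transcript of PPARα itself, Ppara, differed little, with signals of 4958 in the Flox/Flox pool and 5229 in the L-Lpcat3 KO pool (1.06-fold higher). So did its partner Rxra (log2 ratio -0.09) and Hnf4a (-0.11). The related receptors Pparg (213 against 377, 1.77-fold) and Ppard (91.8 against 150, 1.63-fold) were higher at dim signals. By the brightest probe set of each gene, 25 of 28 measured PPARα targets outside the Cyp4 family lay above 0. Of these, 6 were past 1.5-fold upward, 4 with the floor at the 75th percentile. No gene was past that size downward by its brightest probe set, and the median was 0.15. Other probe sets of some genes went the other way. They gave log2 ratios of -0.72 for Cpt2, -0.17 and -0.12 for Cpt1a and -0.14 for Angptl4. For Acaa1a (0.36) and Hadhb (0.28 and 0.38) they lay above 0, whereas the brightest lay below. Over all 12085 measured genes, 50.7% lay above 0 and 4.04% were past 1.5-fold upward. The other 22 targets lay within 1.5-fold, among them Pdk4 (log2 ratio 0.15), Cpt1a (0.12), Plin2 (0.09) and Angptl4 (0.01). The list overlaps the peroxisomal one by several genes, and the study named PPARα targets from these same arrays, so it is not independent evidence of a direction. The study also measured selected lipid metabolism genes by real-time PCR in livers on chow diet, and those values were not used here. The pantetheinase Vnn1 was 1.91-fold higher (3252 against 6197) and its further probe set gave 0.85 on the log2 scale, and the fatty acid transporter Cd36 was 2.35-fold higher (589 against 1387), with 1.29 on the log2 scale in each of its other probe sets. The mitochondrial and cytosolic thioesterases Acot2 and Acot1 were 1.61-fold and 1.57-fold higher. Fgf21 and Cidec lay at the floor in Flox/Flox and were at least 3.09-fold and 2.15-fold higher. The brightest targets, Fabp1 (-0.07) and Acaa1b (0.10), differed little. The ratio of Cyp4a14 exceeded that of every gene on this list with a signal above the floor in both pools. For Fgf21 and Cidec only a bound is known. Because the group was chosen with Cyp4a14 known to be high, nothing is read from this rank.

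**Figure D4:**
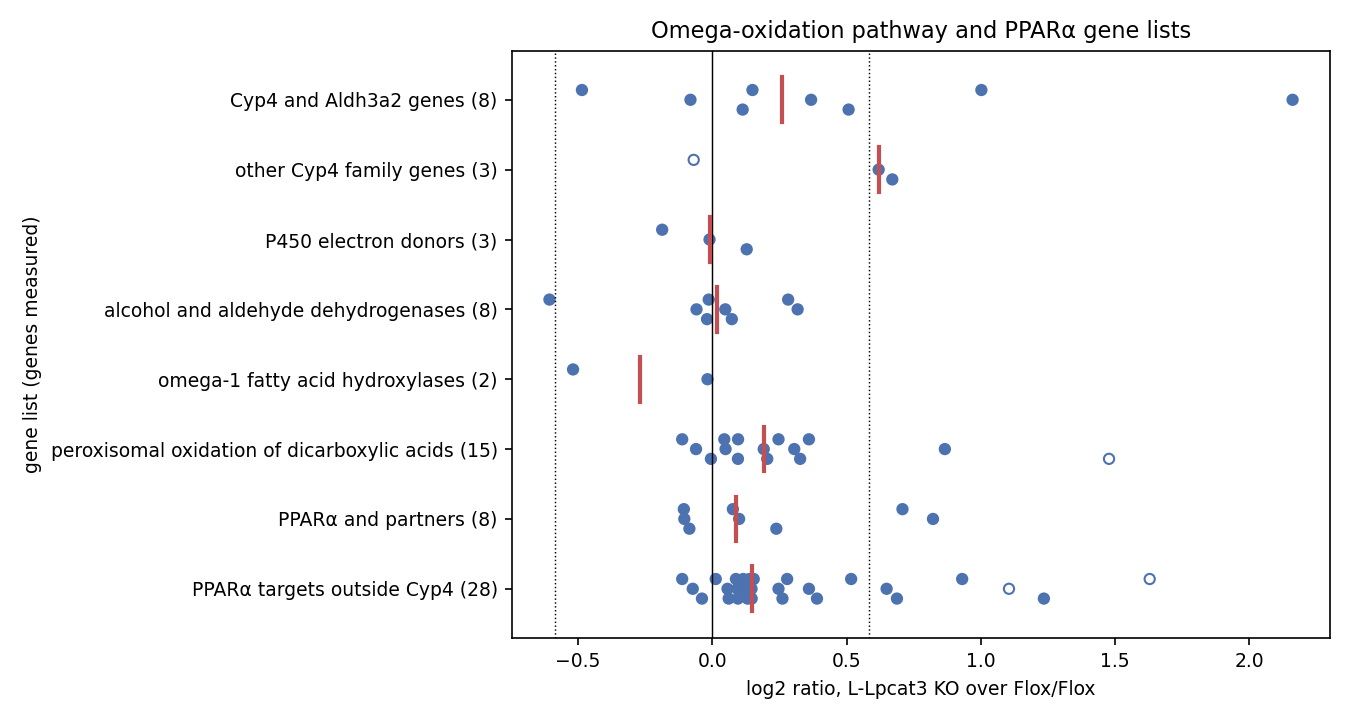
Log2 ratio between the pools, L-Lpcat3 KO to Flox/Flox, on the x axis, for the measured genes of 8 lists (y axis, number of genes in parentheses), 1 point per gene by its brightest probe set; open points were at the floor in 1 pool and are bounds, each median is a red bar and dotted lines mark 1.5-fold. Cyp4a14 at 2.16 is the highest of the filled points, a rank from which nothing is read because the group was chosen with it known. Medians run from -0.27 for the omega-1 hydroxylases to 0.62 for the other Cyp4 genes, of which 3 were measured.

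Sex-biased and rhythmic genes were set beside the group, because Cyp4a12a is known to be male-biased and liver Cyp4a transcripts to vary over the day. None of 6 measured male-biased genes reached 1.5-fold, and 4 of them had ratios below 0, among them Cyp7b1 (32356 against 26969) and Cyp2d9 (28457 against 24826). Of 4 measured female-biased genes, 3 had ratios above 0 and 1, the steroid hydroxylase Cyp17a1, was 2.03-fold higher (776 against 1574), while Fmo2 had a log2 ratio of 0.32. Of 15 clock genes measured, 13 lay within 1.5-fold and the median log2 ratio was 0.00. Bright clock outputs were close in both pools, as Nr1d2 (7639 against 7380), Tef (6575 against 6493) and Dbp (4966 in both). The exceptions were Cry1 (323 against 539, 1.67-fold higher) and Nr1d1, which read 207 and then 48.6, under the floor, and was at least 2.71-fold lower. The part of sex-biased or rhythmic expression in the ratios of the Cyp4 genes was not tested.

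Hepatocyte markers summed to 350618 in the Flox/Flox pool and 340073 in the L-Lpcat3 KO pool, and all 9 lay within 1.5-fold. Sums here add raw signals, also those below the floor, and are governed by the brightest probe sets. They are set side by side between pools only and do not measure the amount of a cell type. Of the kidney tubule markers, included because kidney also expresses Cyp4a genes, 6 of 9 probe sets lay under the floor on both arrays, and no signal exceeded 113, with Kap at 97.0 and 113 and Aqp2 at 88.8 and 92.1. Umod was below the floor in both, and Slc34a1 read 48.6 and 95.2, above the floor in L-Lpcat3 KO only. All 3 kidney tubule genes measured had ratios above 0. By brightest probe set, all 9 Kupffer cell and macrophage markers had ratios below 0, with summed signals of 11304 and 9867. None reached 1.5-fold, and other probe sets of C1qb gave log2 ratios of 0.16 and -0.43. Csf1r read 3083 and 2921, and Cd5l 2459 and 2124. Endothelial markers summed to 4683 and 5547, with Clec4g at 2595 and 3038 and Stab2 at 891 and 1033. Of these 5 markers, 4 had ratios above 0 and 1, Pecam1, was lower (113 and 95.7). Stellate cell markers summed to 7446 and 7639, with Dcn at 4372 and 4537 and Reln at 2318 and 2368. Of the 4 measured, 3 had ratios above 0 and 1, Lrat, was lower (591 and 552). Bile duct markers summed to 330 and 366, with Sox9 2.08-fold lower and Epcam, at the floor in Flox/Flox, at least 1.68-fold higher. Neutrophil markers lay near or under the floor, with each of the 5 under it in 1 pool, and their raw signals summed to 418 and 240; Mmp9 read 103 and 17.9 and Ngp 65.0 and 86.5, and none reached 1.5-fold once raised to the floor. Lymphocyte markers, of which Ms4a1 (53.7 and 85.8) was the one measured, summed to 177 and 185. The part of these shifts in the ratios of the Cyp4 genes was not tested.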

How the data were processed

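The authors hybridized RNA pooled from 5 livers per genotype to Affymetrix mouse genome arrays and deposited 1 signal intensity per probe set, computed with MAS5 per the submitters' processing notes (its version and any genome build are not given in the sources used here). On both arrays, the trimmed mean, without the lowest and highest 2%, was 500.0, so they had been scaled alike. Of 45101 probe sets, 64 were controls, 34945 had 1 gene, 932 several and 9160 none here. Symbols were updated by gene ID to RefSeq (GRCm38.p6). Log2 ratios were L-Lpcat3 KO minus Flox/Flox, with signals under the median (76.4) raised to it; where 1 pool lay at this floor, a fold is a bound. A gene's value is that of its brightest probe set by mean log2 signal. With 1 array per group no test was run, and the number of arrays limits the precision. Named genes were every member, Lpcat3, and from each list up to 4 genes past 1.5-fold and the 2 brightest. The 5 genes with a log2 ratio nearest to that of Cyp4a14 were also named. After their values were seen, Acot1, Acot2, Acot4, Ehhadh, Ppara, Dbp, Cyp4f18, Cyp4f39, Cyp4x1, Alb, Umod and Slc34a1 were added for their roles. Pecam1, Lrat, C1qb, Cpt1a, Cpt2, Acaa1a, Hadhb, Pdk4, Angptl4 and Plin2 were likewise added, as list genes that differed little or went the other way. The members and lists were chosen with earlier results of these data known. Scalings, floors and probe set summaries were varied. Genes of other tissues, a gauge of background, had 14 of 19 probe sets below the floor in both pools; the brightest were Prm1 (780 and 734) and Gnat1 (501 and 368). Scripts were tested on simulated data with less spread than these arrays, which checks the code and not the error of the ratios. Python 3.11.15, numpy 2.4.6, pandas 2.3.3 and statsmodels 0.14.6 were used.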

Additional observations from a re-analysis of the deposited data

How the results depend on the processing

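The directions of all 11 probe sets of Cyp4 genes and Aldh3a2 were kept under median centring, quantile normalization, loess and a pseudocount. Floors at the 25th and 75th percentile and no floor could not change these ratios, because all 11 exceeded 387 in both pools. Leaving out _s_at and _x_at probe sets removes 2 of the 11 and could not change the others. The log2 ratio of Cyp4a14 ran from 2.14 to 2.17 and that of Cyp4f14 from -0.49 to -0.47. The shared probe set of Cyp4a10 and Cyp4a31 passed 1.5-fold after quantile normalization (0.63), which gave 3 probe sets at least 1.5-fold higher in place of 2. Without Cyp4a14, an alternative chosen after seeing the data, 1 was left, by construction, and the median log2 ratio was 0.26 in place of 0.36. By its second brightest probe set, Cyp4a31 (0.36) lay within 1.5-fold. Of 255 comparisons for single genes and gene lists, 23 counts in lists moved by over 1.5 times, nearly all of them with another floor. With the floor at the 75th percentile, 0 genes among PPARα and its partners, 1 other Cyp4 gene, 1 peroxisomal gene and 0 clock genes were 1.5-fold higher, and 0 dehydrogenases and 0 clock genes 1.5-fold lower. No shift of over 0.1 in the median of all probe sets arose from a scaling. The limits are those of 2 arrays without replicates.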

Other observations

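By closeness of log2 ratio over these 2 arrays, the 5 genes most like Cyp4a14, among those brighter than 387 on 1 array or both, were Fen1 (1.70), Maz (1.67), Ces5a (1.63), Aqp4 (1.43) and Zap70 (1.34). Fen1, the flap endonuclease of DNA replication, read 190 in the Flox/Flox pool against 614 in the L-Lpcat3 KO pool, and its ratio differed from that of Cyp4a14 by 0.46. Further probe sets gave log2 ratios of -0.40 for Fen1, -0.29 for Ces5a, 0.29 for Aqp4, and 0.36 and -0.48 for Zap70, so the size was not repeated there. Likeness over 2 arrays says nothing of shared function.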
